A study of Drosophila melanogaster with 13 samples.

Results

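The 10 genes described here encode receptors, adaptors and transcription factors of the Toll and IMD pathways of Drosophila, chosen as the rows of both deposited result tables whose name equals spz, Tl, tub, pll, cact, dl, Dif, imd, key or Rel. All 10 symbols were found, among 8291 gene rows of the siARMI table and 8297 gene rows of the siYB table. RNA came from cultured ovarian somatic cells (OSCs), a wild-type line that descends from follicle cells, the somatic epithelium of the fly ovary. The cells received siRNA against the RNA helicase Armitage (group siARMI), against the Tudor domain protein Yb (group siYB) or against luciferase as the control (group siLUC), with 3 libraries in each group. In all groups the siRNA was given at 0 and 48 h and the cells were harvested at 96 h. The labels name poly(A) RNA as the molecule and their protocol gives poly(A) selection and a directional kit, while the library titles also carry the letters RZ, which the labels do not explain. Yb and Armitage act in the somatic piRNA pathway, which silences transposons in follicle cells. Other libraries of RNA labelled with 4-thiouridine were not analysed here.

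Toll signalling starts outside the cell, where a protease cascade cuts the secreted ligand Spätzle (spz), which then binds the receptor Toll (Tl). The adaptors MyD88 and Tube (tub) and the kinase Pelle (pll) carry the signal to Cactus (cact), an inhibitor of the IκB type, whose loss frees the NF-κB factors Dorsal (dl) and Dif to enter the nucleus. The IMD pathway starts from peptidoglycan recognition proteins and runs through the death domain adaptor Imd (imd) and an IκB kinase, made of IKKβ and Kenny (key), to the NF-κB factor Relish (Rel). Both pathways are known for inducing antimicrobial peptides in fat body and hemocytes, and Toll also sets the dorsoventral axis of the embryo from a cue laid down by ovarian follicle cells.

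The siRNAs lowered their targets. By the authors' deposited tables armi changed by −1.92 ± 0.07 (log2 fold change ± deposited error) in siARMI over siLUC, and fs(1)Yb, which encodes Yb, by −2.17 ± 0.51 in siYB over siLUC. The follicle cell markers tj, zfh1, Fas3, mirr, piwi and fs(1)Yb all had rows, with mean normalised counts of 667 to 7939 in the authors' deposited siARMI table. Of the germ cell markers 5 of 6 had a row, with mean normalised counts of 2.29 to 6.34. The tables hold no value per library. For each row they give 1 mean normalised count over both groups compared, the log2 fold change (shrunk toward 0) with its error, and the p-value before and after Benjamini-Hochberg adjustment. The level of a gene in each group was therefore reconstructed here from the mean normalised count and the fold change of the siARMI table, and carries no spread of its own. A called row is one with an adjusted p under 0.05. In bulk RNA, fewer cells that express a gene and less RNA per cell cannot be told apart.

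The 10 genes covered a wide range of levels in control cells. Per kb of exonic sequence (BDGP6.54 annotation), the reconstructed mean normalised count in siLUC cells was highest for Rel at 443 and cact at 364. The cytoplasmic components tub and key lay close together at 259 each, followed by pll at 144 and dl at 128. The adaptor imd stood at 47.1, the receptor Tl at 16.9, Dif at 7.65 and the ligand spz at 4.55. Of the 3 NF-κB genes, Rel and dl made up nearly all of the summed level per kb, and Dif 4.03% of it in siARMI cells and 1.32% in siLUC cells. Without values per library, neighbours in this order cannot be separated by a test.

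**Figure D1:**
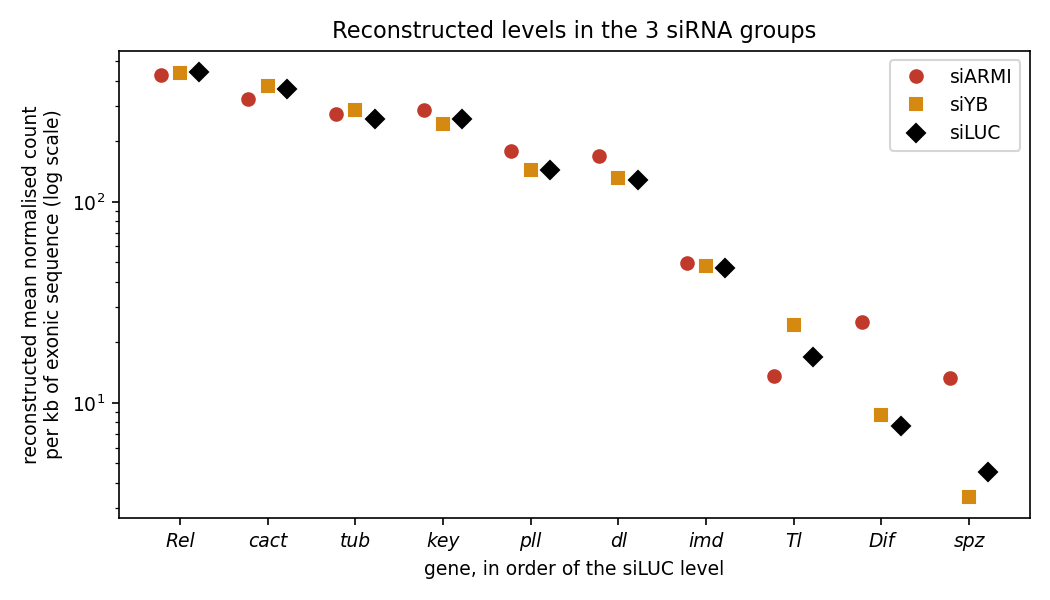
Reconstructed mean normalised count per kb of exonic sequence (log scale) for the 10 genes in siARMI, siYB and siLUC cells, in order of the siLUC level. Each point stands for a group of 3 libraries. It is solved from pooled mean counts and shrunk fold changes, not measured per group, and has no error. Dif stands at 25.2, 8.71 and 7.65 in siARMI, siYB and siLUC cells and spz at 13.4 in siARMI and 4.55 in siLUC cells, while the points of Rel, tub and imd nearly coincide.

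After Armitage knockdown 4 of the 10 genes rose and 6 did not pass, by the adjusted p of the authors' deposited table, and 0 fell. The genes that rose were those of the ligand, spz, of the kinase, pll, and of both NF-κB factors of the Toll pathway, Dif and dl. At an unadjusted p under 0.05 the count was 5 of 10, with cact added on the lower side, and 37.3% of all rows had such a p. Of the 3 IMD genes 0 passed, adjusted or not. Over all 8473 tested rows 28.6% were called, 15.2% higher and 13.4% lower, and among rows at or above the median mean count 41.9% were called when adjusted among themselves. Of the 10 genes 40.0% were called, against the 28.6% of all rows, and of the 6 at or above the median mean count 2 were called (33.3%), against that 41.9%. What follows describes the single genes. The median log2 fold change was 0.12 over the 10 genes and −0.01 over all tested rows.

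**Figure D2:**
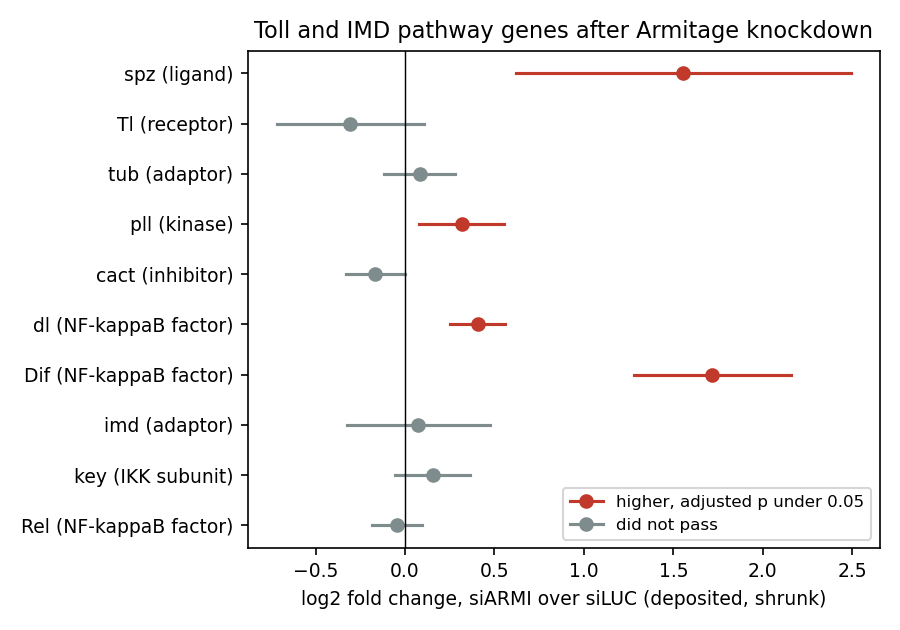
Log2 fold change of the 10 genes in siARMI over siLUC cells, as deposited, in order of pathway step; lines span the estimate ± 1.96 deposited errors and red marks an adjusted p under 0.05. The lines of spz, pll, dl and Dif lie above 0, and those of the other 6 genes include 0.

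Dif changed most of the 10. This gene (FBgn0011274; chromosome 2L, 17413248 to 17433161, minus strand, BDGP6.54) encodes the NF-κB factor that mediates the Toll response to fungi and Gram-positive bacteria in adult flies. Its reconstructed mean normalised count was 143 in siARMI cells and 43.5 in siLUC cells. By the authors' deposited table it was 3.29-fold higher (95% interval 2.42 to 4.47, taken as ± 1.96 errors), or 1.72 ± 0.22 on the log2 scale, with an adjusted p of 3.95e-14. That rise was larger than 97.6% of the log2 fold changes in the table. Dif nevertheless remained below dl and Rel, whose levels per kb were 6.75 and 17.1 times that of Dif in siARMI cells and 16.8 and 57.9 times that of Dif in siLUC cells.

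The gene dl (FBgn0260632; chromosome 2L, 17436830 to 17450364, minus strand, BDGP6.54) encodes Dorsal, the NF-κB factor of the dorsoventral axis, and rose by less. Its reconstructed mean normalised count was 1092 in siARMI cells and 824 in siLUC cells. It was 1.33-fold higher (95% interval 1.19 to 1.47), or 0.41 ± 0.08 on the log2 scale, by the authors' deposited table, with an adjusted p of 1.69e-06. The intervals of Dif and dl do not overlap, and the estimates differ by 1.31 on the log2 scale.

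The ligand gene spz (FBgn0003495; chromosome 3R, 27064990 to 27070070, minus strand, BDGP6.54) was the lowest of the 10 and rose about as much as Dif. Its reconstructed mean normalised count was 31.6 in siARMI cells and 10.7 in siLUC cells. By the authors' deposited table it was 2.94-fold higher with a wide 95% interval of 1.54 to 5.63, or 1.56 ± 0.48 on the log2 scale, with an adjusted p of 0.000553. The mean normalised count of spz, 21.2, exceeded that of only 17.1% of gene rows, and its error was the largest of the 10. With Bonferroni adjustment over all tested rows spz did not pass (adjusted p = 0.657).

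The kinase gene pll (FBgn0010441; chromosome 3R, 27251131 to 27253182, minus strand, BDGP6.54) was nearest to the threshold of those called. Its reconstructed mean normalised count was 346 in siARMI cells and 278 in siLUC cells. The level was 1.25-fold higher (95% interval 1.06 to 1.47), or 0.32 ± 0.12 on the log2 scale, by the authors' deposited table, with an adjusted p of 0.0239. With the threshold on the adjusted p at 0.01, pll did not pass.

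**Figure D3:**
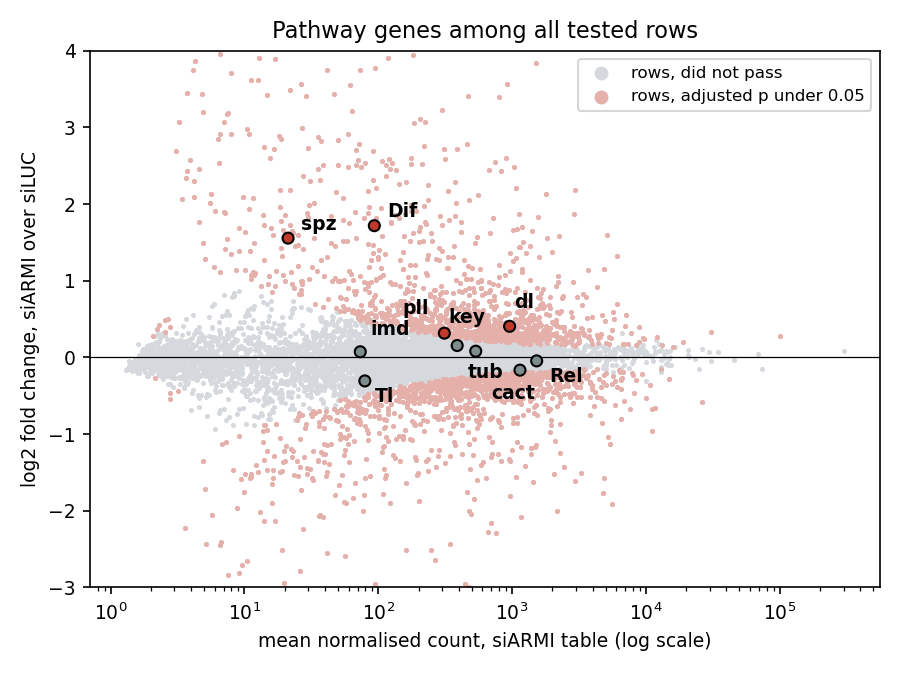
Log2 fold change in siARMI over siLUC cells against the mean normalised count (log scale) for every tested row of the siARMI table, with the 10 genes labelled; pink rows have an adjusted p under 0.05 and 57 rows lie beyond the axis limits of −3 and 4. Dif and spz stand well above most rows of similar count, dl and pll at the upper edge of the main cloud, and the other 6 inside it.

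The other Toll genes did not pass the test. The receptor gene Tl had a reconstructed mean normalised count of 70.9 in siARMI cells and 87.7 in siLUC cells, a difference of −0.31 ± 0.21 (log2) with an adjusted p of 0.212 by the authors' deposited table. The adaptor gene tub stood at 549.9 in siARMI cells and 519.8 in siLUC cells (0.08 ± 0.10 on the log2 scale and adjusted p = 0.590 by the authors' deposited table). For cact, the inhibitor that holds Dorsal and Dif in the cytoplasm and is itself a known Dorsal target, the level was 1079 in siARMI cells and 1211 in siLUC cells. By the authors' deposited table the difference was −0.17 ± 0.08 (log2), with an unadjusted p of 0.0455 and an adjusted p of 0.125. The fold intervals were 0.608 to 1.08 for Tl, 0.922 to 1.21 for tub and 0.794 to 1.00 for cact. The interval of Tl is the widest of these, at a mean normalised count of 79.3.

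The 3 IMD genes did not pass either, with narrower intervals for Rel and key than for imd. Rel, the most abundant of the 10 per kb, had a reconstructed mean normalised count of 1502 in siARMI cells and 1549.9 in siLUC cells, a difference of −0.05 ± 0.07 (log2; fold interval 0.880 to 1.07) with an adjusted p of 0.688 by the authors' deposited table. The gene key, for the regulatory subunit of the IκB kinase, stood at 409 in siARMI cells and 368 in siLUC cells (0.16 ± 0.11 on the log2 scale, fold interval 0.962 to 1.29 and adjusted p = 0.283 by the authors' deposited table). The adaptor gene imd stood at 75.2 in siARMI cells and 71.5 in siLUC cells, with a fold interval of 0.798 to 1.39 (0.07 ± 0.20 on the log2 scale and adjusted p = 0.809 by the authors' deposited table). Nmdmc, a gene on the same strand that overlaps Rel in the annotation, stood at 0.34 ± 0.12 (log2) by the authors' deposited table (adjusted p = 0.0141), so the counting of reads between them is uncertain. On the opposite strand fzy overlaps cact, Dp1 and GstE9 overlap imd, and CG3589 overlaps key. In the authors' deposited table fzy stood at −0.31 ± 0.08 (adjusted p = 0.000339) and Dp1 at −0.16 ± 0.06 (adjusted p = 0.0427). GstE9 and CG3589 did not pass. The strand setting of the counting is not given, so the counts of cact, imd and key are uncertain in the same way.

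Other genes of both pathways moved in either direction after Armitage knockdown. Of 97 further genes looked up, 47 had a row in the siARMI table, of which 12 rose, 7 fell and 28 did not pass. The share called was 40.4%, against 28.6% of all rows. Of the 24 at or above the median mean count 14 were called (58.3%) when adjusted among such rows, against 41.9% of all such rows. The median log2 fold change of the 47 genes was 0.12. The single lists held 4 to 12 measured genes, apart from a list with none, and 25% to 50% of each were called. Against the 28.6% of all rows, counts this small do not set a list apart.

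Upstream of Toll 2 of 12 measured genes rose and 1 fell, and their median log2 fold change was 0.11. By the authors' deposited table the serpin gene Spn27A, whose product restrains the protease cascade, was higher by 0.65 ± 0.17 and GNBP3, a sensor of fungal glucans, by 0.50 ± 0.15. The gene of the modular protease modSP fell by 0.58 ± 0.17. The proteases ea and gd of the embryonic cascade stood at −0.19 ± 0.14 and −0.09 ± 0.16, and sll, a sulphate donor transporter with the highest count of this list, at 0.15 ± 0.12, in the authors' deposited table, and none of them passed. The gene pip, whose sulphotransferase lays down the ventral cue in follicle cells, had a mean normalised count of only 10.7 and did not pass (0.62 ± 0.62 by the authors' deposited table).

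Among the other receptors of the Toll family, Tollo fell and 18w rose. Tollo (Toll-8) had a reconstructed mean normalised count of 1289 in siARMI cells and 2524 in siLUC cells, a difference of −0.97 ± 0.07 (log2) with an adjusted p of 6.02e-39 by the authors' deposited table. The receptor gene 18w (Toll-2) stood at 1199 in siARMI cells and 887 in siLUC cells (0.44 ± 0.08 on the log2 scale and adjusted p = 9.54e-07 by the authors' deposited table). Both are known from epithelial morphogenesis. Toll-7 and Toll-9 did not pass, standing at −0.22 ± 0.33 and −0.24 ± 0.49 by the authors' deposited table. None of the 5 other Spätzle family genes looked up (NT1, spz3, spz4, spz5 and spz6) matched a row.

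Within the Toll branch of the cell 3 of 7 measured genes were called, ref(2)P and Hrs higher and cactin lower. In the authors' deposited table ref(2)P, the p62 autophagy receptor, stood at 0.28 ± 0.09, the endosomal sorting gene Hrs at 0.32 ± 0.08 and cactin, a Cactus-binding factor, at −0.39 ± 0.09. The adaptor gene Myd88 stood at 0.14 ± 0.13 and Pli (Pellino), which binds Pelle, at −0.12 ± 0.08 in the authors' deposited table, and neither passed.

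The largest changes of the IMD branch lay outside imd, key and Rel. The kinase subunit IKKbeta, partner of Kenny, had a reconstructed mean normalised count of 301 in siARMI cells and 727 in siLUC cells, a difference of −1.27 ± 0.11 (log2) with an adjusted p of 1.02e-29 by the authors' deposited table. In the opposite direction pirk, an inhibitor that binds Imd and the recognition receptors, stood at 321 in siARMI cells and 112 in siLUC cells (1.51 ± 0.16 on the log2 scale and adjusted p = 7.55e-21 by the authors' deposited table). Among 10 measured genes of the branch inside the cell 3 rose and 2 fell. In the authors' deposited table akirin, a nuclear cofactor of Relish, was higher by 0.44 ± 0.08, the ubiquitin-conjugating enzyme gene eff by 0.35 ± 0.09 and the kinase gene Tak1 by 0.26 ± 0.09, while its partner Tab2 stood at −0.26 ± 0.11. The caspase gene Dredd, the ubiquitin ligase gene Diap2 and Uev1A, with the highest mean normalised count of those not called, did not pass, standing at −0.06 ± 0.12, 0.14 ± 0.09 and 0.11 ± 0.09 by the authors' deposited table.

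Among 9 measured IMD receptors and negative regulators 3 rose and 1 fell. Besides pirk, casp (Caspar) was higher by 0.36 ± 0.08 and the deubiquitinase gene trbd by 0.27 ± 0.10, and POSH, a ubiquitin ligase gene acting on Tak1, was lower at −0.34 ± 0.09, in the authors' deposited table. The intracellular receptor gene PGRP-LE stood at 0.22 ± 0.14 and scny, the gene of this list with the highest count, at −0.02 ± 0.07 in the authors' deposited table, and neither passed. PGRP-LC, the main IMD receptor at the cell surface, matched no row and was not analysed here.

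**Figure D4:**
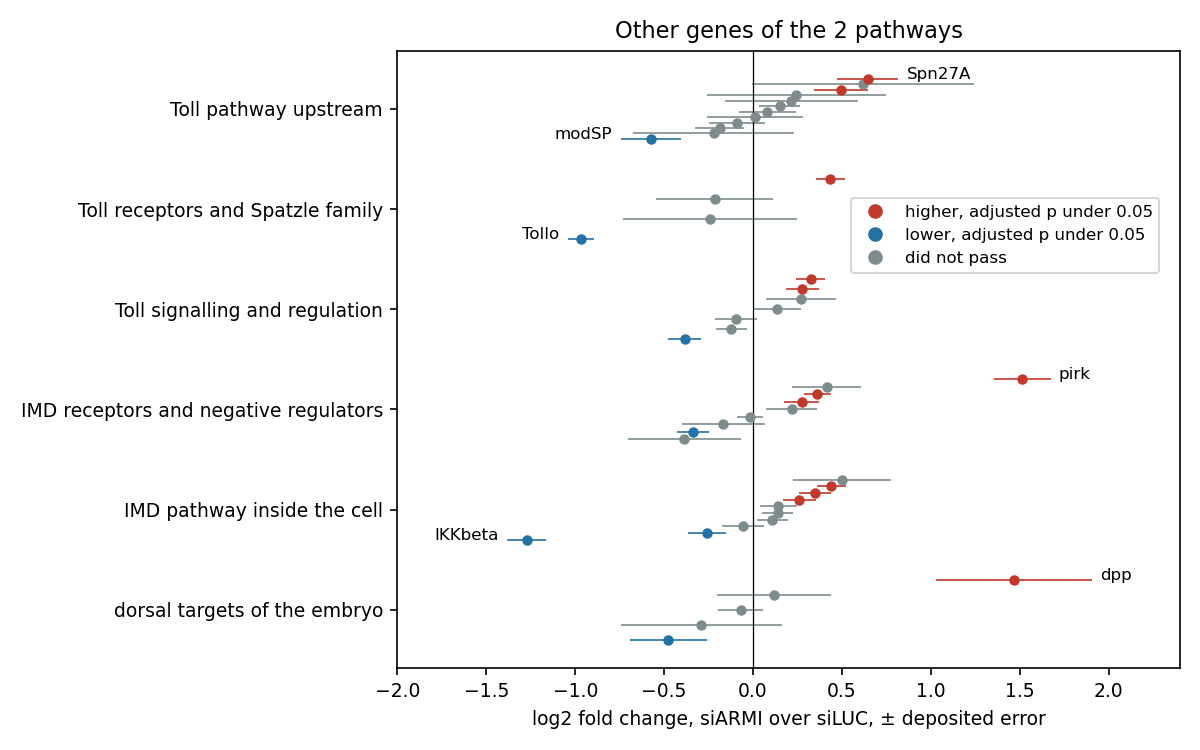
Log2 fold change in siARMI over siLUC cells, ± the deposited error, of the 47 further pathway genes with a row, by list; red and blue mark genes called higher and lower. Tollo at −0.97 and IKKbeta at −1.27 stand apart on the lower side, pirk at 1.51 and dpp at 1.47 on the upper side.

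The antimicrobial peptide readouts of the pathways could not be followed. Of 23 antimicrobial peptide and Bomanin genes looked up, among them Drs, Mtk, DptA, AttA and CecA1, 0 matched a row in either table. Of 9 genes known as Dorsal targets in the embryo, 5 had a row in the siARMI table, and 1 rose, 1 fell and 3 did not pass. The signalling ligand gene dpp, repressed by Dorsal in the embryo, was higher by 1.47 ± 0.44 at a low mean normalised count of 25.0 (adjusted p = 0.000476), and rho stood at −0.48 ± 0.22 (adjusted p = 0.0407), in the authors' deposited table. The repressor gene brk, with the highest mean normalised count of these, stood at −0.07 ± 0.13 by the authors' deposited table and did not pass. At a mean normalised count of 19.4, near that of dpp, zen stood at 0.12 ± 0.32 by the authors' deposited table and did not pass either. Of twi and sna, known as targets of high Dorsal, only twi had a row, and that in the siYB table alone.

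Markers of hemocytes, a main site of Toll and IMD activity, were looked at beside these results. Of 7 hemocyte markers 2 had a row, and both rose after Armitage knockdown. In the authors' deposited table Pxn was higher by 1.27 ± 0.14 and the GATA factor gene srp by 1.05 ± 0.19, and their summed reconstructed mean normalised count was 657 in siARMI cells and 290 in siLUC cells. The defining markers Hml, NimC1, He, eater and Sr-CI matched no row. Of 7 fat body markers 1, Yp3, had a row, with a mean normalised count of 8.07, and it did not pass. Of the 5 germ cell markers with a row 1, osk, was called higher and 4 did not pass. By the authors' deposited table osk stood at 1.29 ± 1.43 (log2) with an adjusted p of 0.0407, at a mean normalised count of 5.05. Of the follicle cell markers 1 of 6, Fas3, rose by 2.13 ± 0.18 and the other 5 fell, by 0.23 to 0.52 on the log2 scale, in the authors' deposited table. The part of these markers in the changes of spz, Dif, dl and pll was not tested.

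Dif and dl lie on the same strand of chromosome 2L, 3.67 kb apart, with dl upstream of Dif. They are neighbours only among tested genes, since the annotation places CG5043 and CG33928, neither of them tested, between them. The next tested gene beyond dl, CG5050, also rose, and stood at 1.01 ± 0.28 (log2; adjusted p = 0.000334) by the authors' deposited table, at a mean normalised count of 55.4. Within 50 kb on either side of the pair, a window chosen after their values were seen, 17 genes were tested, of which these 3 were higher, 2 (Lrch and mEFTs) were lower and 12 did not pass. The 5 called are 29.4% of the 17, close to the 28.6% of all rows, and without Dif and dl, which set the window, 3 of 15 (20.0%) were called. On the far side of Dif, CG15141, which overlaps its end on the opposite strand, stood at 0.03 ± 0.11, and SPH93, nested in CG5050, at 0.01 ± 0.38, in the authors' deposited table. The reference annotation places a transposon copy of 0.048 kb within Dif and a 0.428 kb copy of roo within Tl, both outside exons, and whether the OSC genome holds them is not given. Of the nearest tested neighbours of spz and pll 0 were called higher. Around spz, CG31075 and gb, at gaps of 76.5 and 38.4 kb, stood at −0.51 ± 0.41 and −0.34 ± 0.20 in the authors' deposited table. Neither passed, and CG43935, which overlaps spz on the opposite strand, had no value. Around pll, TTLL6B stood at −0.31 ± 0.43 and woc fell by 0.27 ± 0.06, in the authors' deposited table. TfIIA-L, which overlaps pll on the opposite strand, stood at −0.03 ± 0.09 there and did not pass.

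**Figure D5:**
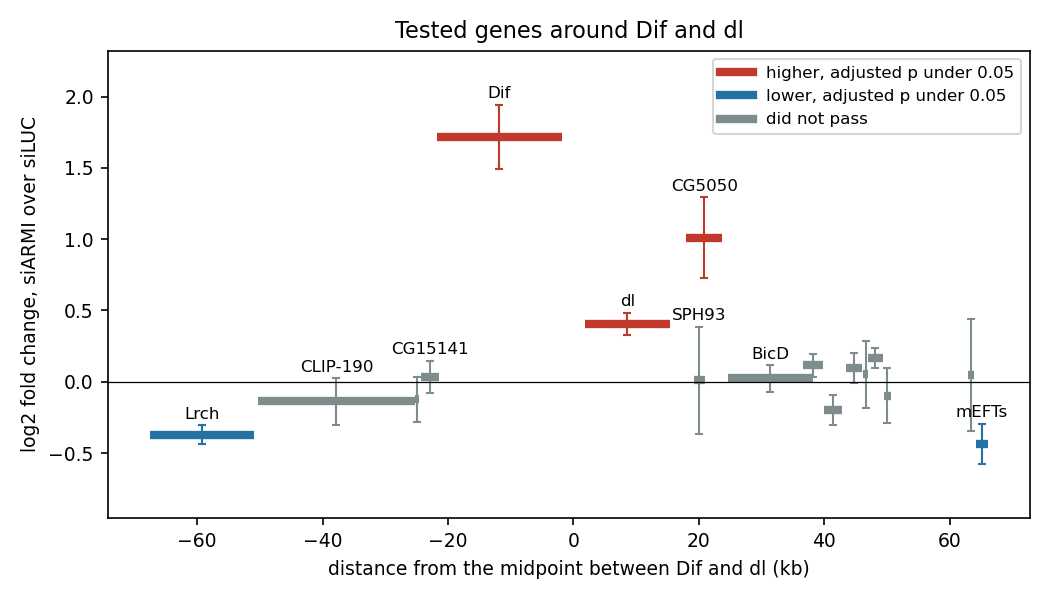
Log2 fold change in siARMI over siLUC cells, ± the deposited error, of the 17 tested genes around Dif and dl, against distance from the midpoint between them; bars span each gene and red and blue mark genes called higher and lower. Among the tested genes, Dif at 1.72, dl at 0.41 and CG5050 at 1.01 stand next to each other above genes near 0.

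After Yb knockdown 0 of the 10 genes passed the test in the authors' deposited table, which names its columns as DESeq2 does, and 0 had an unadjusted p under 0.05. Their unadjusted p ranged from 0.448 for spz to 0.933 for key. The background is as low, since 0.189% of 8478 tested rows were called, 0.142% higher and 0.0472% lower. Of these rows 0.778% had an unadjusted p under 0.05, so that the count of 0 does not set the 10 genes apart. Rows without any change would give such a p in a share near 0.05. The p-values of the siYB table thus ran high, and few calls do not show few effects. The deposited error for fs(1)Yb was 0.51 in the siYB table, against 0.07 in the siARMI table. These errors belong to mean normalised counts of 372 and 1890 and follow unlike shrinkage, so they are only a rough guide to precision. A count of 0 in the siYB table does not show that the genes were unchanged. Of the further pathway genes 50 had a row in the siYB table, and 0 were called and 0 had an unadjusted p under 0.05. The deposited log2 fold changes of the 10 genes are all shrunk to 0, the largest in absolute value being 8.95e-06, and carry no size.

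The size of the siYB change was therefore reconstructed from the mean normalised counts of both tables, which share the siLUC libraries as the series design describes them. For the 22 features whose deposited siYB log2 fold change was not shrunk to 0, the reconstructed value had the same sign in all 22 and lay within 1 deposited error in 20, with a median absolute difference of 0.14. For fs(1)Yb it was −1.54 against the deposited −2.17, and for antisense rover −1.56 against −2.47 (log2). These were the 2 outside 1 error and also the only 2 with a negative deposited value, and the reconstructed falls were smaller than the deposited ones, by 0.63 for fs(1)Yb and 0.91 for antisense rover. All 20 with a positive deposited value lay within 1 error, so reconstructed falls are taken as less certain than rises, though only 2 negative values were there to compare. The errors of the 20 ran from 0.46 to 1.82 (log2), so the check does not show that ratios near 0 are accurate. The reconstruction carries no error, and the spread of gene rows with a mean normalised count within 1.5-fold of each gene's is given in its place.

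All 10 genes lay inside that spread. It is the middle 95% of the same reconstructed ratios, so most genes lie inside it by construction. The count therefore does not set the 10 genes apart. Rows without a positive reconstructed siYB mean had no ratio and were left out of the spread. Like count was judged by the mean of the siARMI table, which includes the rises of Dif and spz. For Dif the reconstructed mean normalised count was 49.6 in siYB cells and 43.5 in siLUC cells, a log2 ratio of 0.19, where the middle 95% of 1115 rows of like count spanned −0.41 to 0.67. For dl it was 845 in siYB cells and 824 in siLUC cells, a log2 ratio of 0.04, and for pll 279 in siYB cells and 278 in siLUC cells, a log2 ratio of 0.01. For spz it was 8.08 in siYB cells and 10.7 in siLUC cells, a log2 ratio of −0.41 with rows of like count spanning −0.86 to 1.32. The sign of the spz ratio is not settled, since it became 0.13 when the siARMI fold change was taken from the deposited p-value and error in place of the shrunk value. The largest value was that of Tl, with 127 in siYB cells and 87.7 in siLUC cells, a log2 ratio of 0.54 within −0.43 to 1.00. The remaining genes, tub, cact, imd, key and Rel, lay between −0.08 and 0.14.

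Side by side, Dif stood at 1.72 in siARMI over siLUC as deposited and at 0.19 in siYB over siLUC as reconstructed, dl at 0.41 and 0.04, spz at 1.56 and −0.41 (0.13 in the other reconstruction), and pll at 0.32 and 0.01. Both comparisons are taken to use the same siLUC libraries, as the series design describes them, and the difference between the knockdowns was not tested. The siYB table gives no usable error for these genes, so its values do not show that these genes were unchanged by Yb knockdown. Outside the 10 genes the reconstructed siYB log2 ratio was 0.27 for pirk, −0.56 for IKKbeta (unadjusted p = 0.147 in the authors' deposited table) and −0.30 for Tollo.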

How the data were processed

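Poly(A) RNA was sequenced from 3 siARMI, 3 siYB and 3 siLUC libraries, grouped by the titles. The authors deposited 1 result table per knockdown against siLUC. Rows of the deposited tables hold, per the file headers, a mean normalised count (a signal scaled for library size), the log2 fold change with its error, and the p-value with its adjusted form. Tools listed without roles in the submitters' processing notes are DESeq2, edgeR, Salmon 1.7.0, HOMER, STAR and Bowtie, and the column names are those of DESeq2. For the counting, genome build, annotation and strand setting were not given in the sources used here. The sign was read as knockdown over control, since armi and fs(1)Yb were negative where targeted. The log2 fold changes were shrunk toward 0, in the siYB table to an error under 0.01 for 8458 of 8480 rows. Shrinkage understates the change of low genes.

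The planned count tests could not be run, as the tables hold no per-library values. Depth per library is not given. Summed over rows, the mean normalised counts came to 6210720 (siARMI table) and 1642730 (siYB table). The deposited error of fs(1)Yb was 0.07 in the siARMI table and 0.51 in the siYB table. Mean counts and shrinkage differ between these values, so they compare the precision of the tables only roughly. Whether replicate libraries were separate cultures is not stated, so the p-values reflect the spread among these libraries only, which may be technical. Adjusted p-values are the authors', recomputed here to a largest difference of 3.64e-14, and 2 rows of each table had no p-value. With 3 libraries per group assumed equal in weight, the siLUC mean is 2 times the mean count divided by 1 plus the fold, and the siARMI mean is that times the fold. The siYB mean is 2 times the mean count of the siYB table divided by 0.269, less the siLUC mean. The divisor is the median ratio of that mean count to the siLUC mean, over 4172 gene rows at or above the median count. Its use takes the median of these rows as unchanged by Yb knockdown. This reconstruction of the siYB mean was chosen after seeing the data. The members and gene lists were chosen with earlier results of these data known. All 10 members are named, with each further list gene that passed and the one of highest count that did not, and others chosen after their values were seen. Symbols were matched by name or RefSeq synonym. Analyses used Python 3.11.15, pandas 2.3.3 and scipy 1.17.1. Alternatives were other sets of rows for adjustment, other thresholds, Bonferroni adjustment, a minimum fold change and centring on the median.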

Additional observations from a re-analysis of the deposited data

How the results depend on the processing

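For the 10 pathway genes, 4 were called after Armitage knockdown as reported, against 2 of the 6 at or above the median mean count when only such rows were adjusted, 2 with Bonferroni adjustment and 2 where the log2 fold change also had to reach 0.5 in either direction. The first follows from spz and Dif lying below that count, and the third from dl and pll having smaller changes. Of 66 values of single genes under these alternatives 61 kept their direction and side of the threshold and 5 lost the call (pll in 3, spz and dl in 1 each), and 0 reversed. After Yb knockdown 0 were called under all 7 alternatives run. The 19 calls among further pathway genes became 6 with Bonferroni adjustment and 6 where the log2 fold change also had to reach 0.5 in either direction. The reconstructed siYB log2 ratios moved by less than the spread of rows of like count in 20 of 20 cases, but 2 of the 20 changed sign. For spz the ratio was −0.41 as reported and 0.13 with the fold change taken from the p-value and the error, and for pll 0.01 as reported and −0.0077 with the scale from all gene rows. No paired analysis was possible because the tables hold no per-library values, and for the same reason leaving out each replicate was not run. The error was largest for spz, the gene with the lowest mean count of the 10.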
